A study of Mus musculus with 4 samples.

Results

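The genes described here encode ATP-dependent chromatin remodellers, together with subunits that belong to the same complexes. They were taken from the deposited count table by gene symbol, with a name pattern for the SWI/SNF, ISWI, CHD, NuRD, INO80 and SWR1 genes, and the pattern matched 48 of the 50559 genes listed. The 48 were sorted into 20 SWI/SNF, 3 ISWI, 14 CHD and NuRD, 7 INO80 and SWR1 and 4 other SNF2-type genes, and 20 of them encode the ATPase itself. RNA-seq was compared between mouse embryonic stem cells (ESCs) given an siRNA against Cnot1 (siCnot1) and ESCs given a non-targeting siRNA (siNT), with 2 libraries per group and 4 in all. Both groups were labelled as line E14, were grown on gelatin in serum replacement with leukemia inhibitory factor, received 150 nM siRNA and were collected after 48 h. Per the study's methods the ESCs carried a tdTomato transgene driven by the MERVL promoter, a reporter of 2-cell-like cells, in both groups alike, and the replicates were independent biological replicates of this one line. Knockdown was by transient transfection. Libraries were made from poly(A)+ RNA, so only polyadenylated transcripts were counted.

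Chromatin remodellers use ATP to slide, evict or exchange nucleosomes. SWI/SNF (BAF) complexes open chromatin at enhancers and promoters, ISWI enzymes space nucleosomes in regular arrays, CHD enzymes act at promoters and gene bodies or, with NuRD, beside histone deacetylases, and INO80 and SWR1-type enzymes move nucleosomes or place the histone variant H2A.Z. In ESCs a particular BAF assembly built on SMARCA4, SMARCC1 and ARID1A (esBAF) sustains self-renewal, while CHD4-NuRD and CHD1 shape pluripotency and its exit. CNOT1, the targeted protein, is the scaffold of CCR4-NOT, the complex that shortens mRNA poly(A) tails.

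Counts on genes totalled 32135824 to 32557440 per library, of which the 48 genes took 0.7251% to 0.7505%. Levels below are counts scaled to library size with edgeR's TMM factors (normalized CPM), and differences are log2 fold changes of siCnot1 over siNT with their standard error (SE). A gene was called higher or lower where its adjusted p was under 0.05 in edgeR's quasi-likelihood test, two-sided and with Benjamini-Hochberg adjustment over all 18144 genes that had enough counts. That p is written "edgeR adjusted p". Gene positions are GRCm39. Cnot1 (chr8:96445559-96534741) was at 913 and 986 normalized CPM in siNT and at 185 and 192 in siCnot1, so both siCnot1 libraries lay far below both controls. Its log2 fold change was -2.33 (SE 0.0587, edgeR adjusted p = 2.37e-18). The share of counts on mitochondrially encoded genes was 1.17% and 1.401% in the siNT libraries and 2.11% and 1.76% in siCnot1, and the part of this difference in the results below was not tested.

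After Cnot1 knockdown the remodeller genes moved in both directions and mostly by little. Of the 47 genes with enough counts, 10 rose, 14 fell and 23 were not called, which is 21.3% higher and 29.8% lower, beside 15.0% higher and 14.7% lower of all genes tested. The genes that rose were led by Chd5 and Smarca2, both scarcely expressed in control cells, followed by Smarca1, and the others of the 10 (Arid1b, Chd8, Chd6, Ino80c, Chd2, Bptf and Ep400) rose by 0.15 to 0.31 on the log2 scale. The genes that fell were led by Mta3 and Ino80b and included Hells, Ino80, Pbrm1 and Smarca5. The median log2 fold change of the 47 was -0.019, beside 0.0084 over all genes tested. The study's methods used other thresholds, a p of 0.05 or less without adjustment together with a change of 1 or more on the log2 scale. At these only Chd5 and Smarca2 were higher and 0 members were lower (DESeq2 also gave 0), beside 6.18% and 1.80% of all genes tested. In this fit 29 of the 47 (61.7%) had an unadjusted p under 0.05 over both directions, beside 39.3% of all genes tested. Actl6b, the neuronal actin-like BAF subunit, was not tested, with 0 counts in both siNT libraries and with 4 and 0 counts in the siCnot1 libraries.

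**Figure D1:**
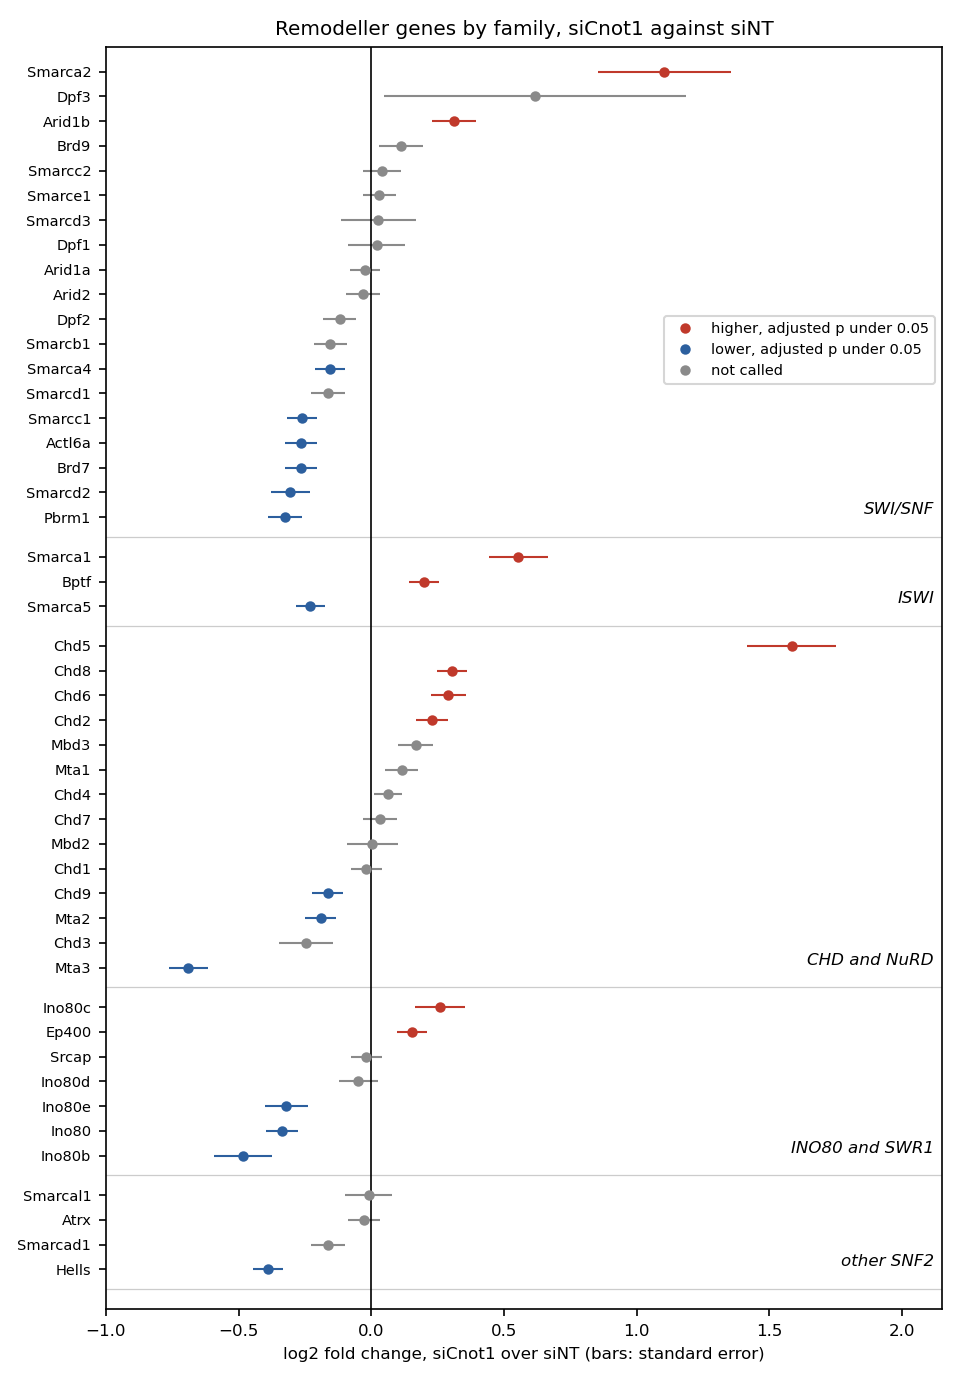
Log2 fold change of siCnot1 over siNT (horizontal axis) for the 47 remodeller genes tested, grouped by family, with bars of 1 standard error. Red marks the 10 genes called higher, blue the 14 called lower and grey the 23 not called. Chd5 and Smarca2 lie farthest to the right and Mta3 farthest to the left.

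These counts stand beside the behaviour of all genes. Scaling by library totals in place of TMM moved the median log2 fold change of all tested genes from 0.0084 to 0.12. With it 14 members were higher and 9 lower, so that 60.9% of the calls were higher instead of 41.7%. All genes shifted the same way under library totals, to 22% higher and 8.61% lower. Each of the 24 called genes kept its sign under that scaling, but Chd9, Ino80e, Mta2, Smarca4 and Smarca5 were no longer called. Calls also followed expression level over all genes. Among genes at 64 to 256 normalized CPM, where 26 of the members lie, 32.2% of all genes were lower and 14.4% higher, and 9 of the 26 members were lower and 4 higher. Above 256 normalized CPM, 61.0% of all genes were lower and 8.33% higher, and 3 of the 7 members were lower and 1 was higher. At low levels the shares ran the other way. At 4 to 16 normalized CPM, the class of Chd5, 21.5% of all genes were higher and 9.96% lower. At 1 to 4, the class of Smarca2, 16.2% were higher and 4.68% lower. The counts by family given below rest on few genes and are read against these shares. In fits that left out 1 library, which rest on 3 libraries, 743 to 1439 of all genes were higher and 871 to 1463 lower, against 2719 and 2668 with the 4 libraries, and 3 to 6 members were higher and 4 to 8 lower. Chd5, Chd8, Mta3, Hells and Ino80 were called in each of those 4 fits and under each of 8 alternatives of scaling, filter, test and model.

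**Figure D2:**
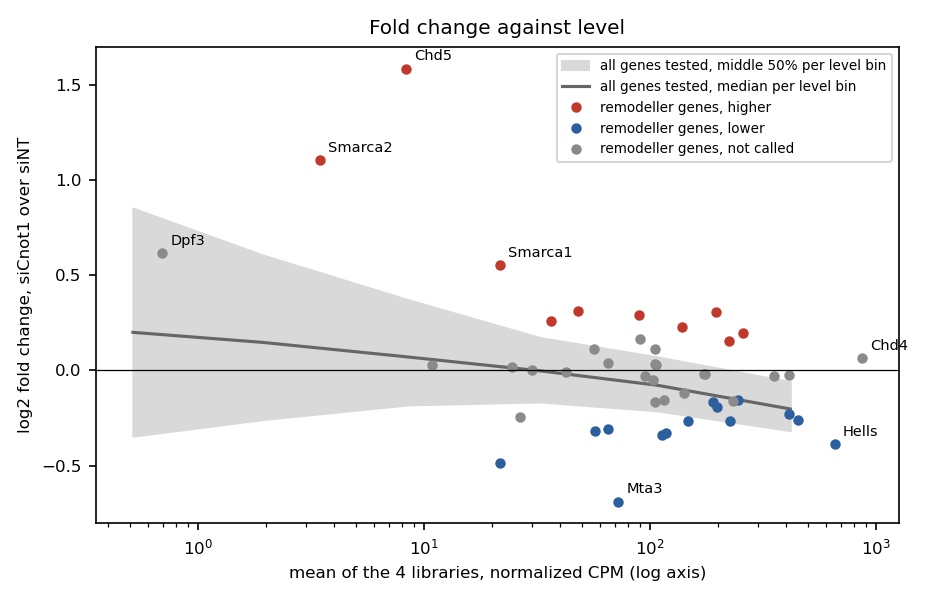
Log2 fold change of siCnot1 over siNT (vertical axis) against mean normalized CPM of the 4 libraries (horizontal axis, log scale). Points are the 47 remodeller genes tested, the dark line is the median and the grey band the middle 50% of all genes tested in each level bin. The band drops to the right, from a median of 0.20 below 1 CPM to -0.20 above 256 CPM, with Mta3 and Ino80b among the points below it and Chd5 and Smarca2 among those above it.

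Short sequences from the reference are shown here for the genes the results turn on. Of the 48 genes, 38 have an entry in the RefSeq promoter table (GRCm38.p6), which covers 250 bases before to 50 bases after the start site. Where a gene had more than 1 promoter listed, only the first was searched, for members and for all genes alike. Both strands were searched for CCAAT, the E-box CACGTG, the E2F sites TTTCCCGC and TTTGGCGC, the ETS site CCGGAAG, the YY1 site AAGATGGC, the cAMP response element TGACGTCA, the GC box GGGCGG and the TATA box TATAAA. The GC box can share bases with TTTCCCGC read on the other strand. A GC box was in 34 of the 38 promoters (89.5%), against 59.4% of the 12821 promoters of tested genes, and the median GC content was 64.8% against 60.0%. TTTCCCGC was in 3 of the 38 (7.89%), against 1.97% of all, and TTTGGCGC and TGACGTCA were in 0 of the 38, against 0.928% and 2.94%. The shares for the other motifs were 34.2% against 39.0% for CCAAT, 7.89% against 9.78% for the E-box, 15.8% against 16.3% for the ETS site, 7.89% against 4.18% for the YY1 site and 5.26% against 7.74% for the TATA box. The 3 promoters with TTTCCCGC belong to Hells and Brd7, which fell, and to Smarcd1, which was not called. They are shown over 40 bases, 5′ to 3′ on the strand that holds the motif in capitals, from GRCm38.p6 chr19:38930912-38930951 (plus strand), chr8:88362177-88362216 (minus strand) and chr15:99702140-99702179 (plus strand).
Hells: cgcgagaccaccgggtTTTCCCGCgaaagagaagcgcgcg
Brd7: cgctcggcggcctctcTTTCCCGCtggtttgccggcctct
Smarcd1: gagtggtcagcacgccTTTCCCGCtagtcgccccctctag
The promoters of Smarca2 and Chd5, the members that rose most, are given in full for comparison (GRCm38.p6 chr19:26604910-26605209 and chr4:152338401-152338700, both plus strand). Capitals mark the ETS site of Smarca2, read on the opposite strand. Of the motifs searched, this Chd5 promoter, the first of 2 listed, holds only the GC box, which is left in lower case in both.
Smarca2: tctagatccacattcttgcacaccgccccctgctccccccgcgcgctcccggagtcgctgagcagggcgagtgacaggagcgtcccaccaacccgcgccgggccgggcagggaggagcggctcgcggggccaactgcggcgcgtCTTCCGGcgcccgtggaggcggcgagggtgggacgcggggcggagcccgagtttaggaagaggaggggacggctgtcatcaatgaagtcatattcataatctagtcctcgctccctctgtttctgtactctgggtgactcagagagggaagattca
Chd5: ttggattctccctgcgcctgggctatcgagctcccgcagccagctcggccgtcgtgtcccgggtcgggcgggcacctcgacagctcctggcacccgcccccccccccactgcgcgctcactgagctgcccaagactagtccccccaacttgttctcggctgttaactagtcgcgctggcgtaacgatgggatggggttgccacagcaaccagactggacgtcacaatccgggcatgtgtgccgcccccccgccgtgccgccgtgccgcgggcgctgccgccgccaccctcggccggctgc

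Pumilio proteins bind the element TGTANATA in 3′ UTRs and are known to recruit CCR4-NOT. In GENCODE M21 transcripts (GRCm38) the element, read on the mRNA strand, was in the 3′ UTR of 16 of the 47 tested members (34.0%), against 23.5% of 13767 tested genes with a 3′ UTR. It was in 3 of the 10 members that rose (Bptf, Chd2 and Ep400), in 6 of the 14 that fell and in 7 of the 23 not called. The AU-rich element TATTTAT was in 9 of the 47 (19.1%), against 27.1% of all. For each gene 1 transcript was read, that with the longest coding sequence. The median 3′ UTR was 1078 bases for the members and 937 for all genes, and the part of this length in the shares was not tested. The sites of called members are shown over 30 bases with the element in capitals, to let the flanks be compared: those of genes that rose lie at chr11:107034223-107034252, chr7:73426727-73426756 and chr5:110664456-110664485, all on the minus strand.
Bptf: cctactccctcTGTACATAaaaatgtcact
Chd2: gtgatttctgaTGTAAATAatgttgtttat
Ep400: aggactgaaatTGTAAATActttgtaaaca
Those of genes that fell lie at chr19:38970698-38970727 (plus), chr2:119373114-119373143 (minus), chr8:88332444-88332473 and chr8:88331978-88332007 (both minus), chr8:80698936-80698965 (minus), chr9:21703896-21703925 (plus) and chr8:91052017-91052046 (plus), in the order given.
Hells: tttagcaaactTGTATATAgacacagaatt
Ino80: ataactgaactTGTACATAtgtataaagag
Brd7, first site: tgattctattaTGTACATAgtttttcattc
Brd7, second site: aatgtgtattaTGTACATAcatacatacat
Smarca5: aatttttcctaTGTATATAgtccaggctgg
Smarca4: acatatgaatgTGTATATAtacatacatac
Chd9: taattactaacTGTAAATAtcccagtgttg
The median log2 fold change was -0.10 for the members with the element and 0.027 for those without it, beside 0.021 and 0.019 for all genes. A match is a string of letters, and binding was not measured.

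In the SWI/SNF family 2 of 19 tested genes rose, 6 fell and 11 were not called, beside 15.0% higher and 14.7% lower of all genes. The 2 alternative ATPases moved in opposite directions. Smarca2, which encodes the ATPase BRM (chr19:26580804-26755721), had 2.41 and 1.98 normalized CPM in siNT and 4.18 and 5.26 in siCnot1. Both siCnot1 values lay above both control values, and the log2 fold change was 1.10 (SE 0.249, edgeR adjusted p = 0.00158). Smarca4, which encodes BRG1, the ATPase of esBAF (chr9:21527377-21615526), was at 264 and 254 in siNT and at 233 and 232 in siCnot1. It fell slightly, with no overlap between the groups, by a log2 fold change of -0.16 (SE 0.0559, edgeR adjusted p = 0.0372), and with library totals the value was -0.049 (edgeR adjusted p = 0.536). Compared per exon length, as TPM computed from the deposited counts and lengths, Smarca2 made up 0.793% and 0.678% of the summed Smarca2 and Smarca4 level in siNT and 1.55% and 1.95% in siCnot1. Smarca4 thus remained nearly all of the pair in every library.

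Among the core subunits shared by the SWI/SNF assemblies, 3 of 8 tested genes fell and 0 rose. Over all genes tested 14.7% were lower and 15.0% higher. The share lower was 32.2% for genes at 64 to 256 normalized CPM and 61.0% above that. Smarcc1, the BAF155 scaffold typical of esBAF (chr9:109961092-110069246), had 478 and 503 normalized CPM in siNT and 395 and 423 in siCnot1. The groups did not overlap and the log2 fold change was -0.26 (SE 0.0561, edgeR adjusted p = 0.00101). Its paralog Smarcc2 (BAF170) was not called, with a log2 fold change of 0.040 (SE 0.073), and its share of the pair's TPM was 11.9% and 11.04% in the siNT libraries and 14.2% and 13.3% in siCnot1. Smarcd2, one of 3 alternative BAF60 subunits (chr11:106153997-106163810), was at 74.6 and 70.1 in siNT and 57.8 and 59.3 in siCnot1. It was lower in both siCnot1 libraries, with a log2 fold change of -0.31 (SE 0.0739, edgeR adjusted p = 0.00283). Actl6a, the actin-like subunit BAF53A found in dividing cells (chr3:32762695-32781122), had the highest TPM of the 48 genes in siNT, 249.8 and 255.5. Its normalized CPM was 251 and 241 in the siNT libraries and 192 and 217 in siCnot1. Both siCnot1 values were lower, and the log2 fold change was -0.27 (SE 0.06198, edgeR adjusted p = 0.00216). The 5 core genes not called were Smarcb1, Smarcc2, Smarcd1, Smarcd3 and Smarce1, with log2 fold changes from -0.16 to 0.040, and Smarcd1 was called lower with DESeq2's size factors (edgeR adjusted p = 0.0470). An opposite-strand gene, Chpf2, shares 23.7% of the exon bases of Smarcd3, and an expressed processed copy of Smarce1 is listed, so the levels of both are uncertain.

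The subunits that set one SWI/SNF assembly apart from another moved unequally. Of the 5 BAF genes only Arid1b was called, beside 15.0% higher and 14.7% lower of all genes tested. Arid1b, the less abundant of the ARID1 DNA-binding subunits (chr17:5044481-5397931), was at 43.01 and 42.9 normalized CPM in siNT and at 53.05 and 53.6 in siCnot1. The spread within each group was much smaller than the gap between them, and the log2 fold change was 0.31 (SE 0.0823, edgeR adjusted p = 0.00561). Arid1a, the paralog used in esBAF, overlapped between the groups, and the share of Arid1b in their summed TPM was 9.02% and 8.62% in the siNT libraries and 11.2% and 10.6% in siCnot1. The PHD-finger subunits Dpf1, Dpf2 and Dpf3 were not called, and Dpf3 was near the detection limit at 0.418 to 1.255 normalized CPM. Of the 3 PBAF genes, Pbrm1 and Brd7 fell. Both lie at 64 to 256 normalized CPM, where 32.2% of all genes were lower. Pbrm1, the polybromo subunit that reads acetylated histones (chr14:30741095-30843549), had 124 and 137 normalized CPM in siNT and 106 and 102 in siCnot1. Its log2 fold change was -0.33 (SE 0.06502, edgeR adjusted p = 0.000494), with no overlap. Brd7, a bromodomain subunit (chr8:89056522-89089249), was at 157 and 164 in siNT and 137 and 129.6 in siCnot1. It also showed no overlap, with a log2 fold change of -0.27 (SE 0.0608, edgeR adjusted p = 0.00177). The third PBAF gene, Arid2, overlapped between the groups at a log2 fold change of -0.030 (SE 0.06403), as did the non-canonical BAF gene Brd9 at 0.11 (SE 0.0824), which was called higher with library totals (0.22, edgeR adjusted p = 0.0470).

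With 1 library left out, every called SWI/SNF gene kept its sign and most lost the call. Smarca4 and Arid1b were not called in any of the 4 fits (edgeR adjusted p of 0.0914 to 0.187 and of 0.0671 to 0.0875). Without siNT replicate 1, siNT replicate 2 or siCnot1 replicate 1, Smarcc1 (0.0532 to 0.0852) and Actl6a (0.0815 to 0.150) were not called. Without siNT replicate 1, siNT replicate 2 or siCnot1 replicate 2, Smarca2 (0.0602 to 0.0825) and Brd7 (0.0563 to 0.0777) were not. Smarcd2 was lost without siNT replicate 1, siCnot1 replicate 1 or siCnot1 replicate 2 (0.0521 to 0.0881), and Pbrm1 only without siNT replicate 2 (0.0637).

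**Figure D3:**
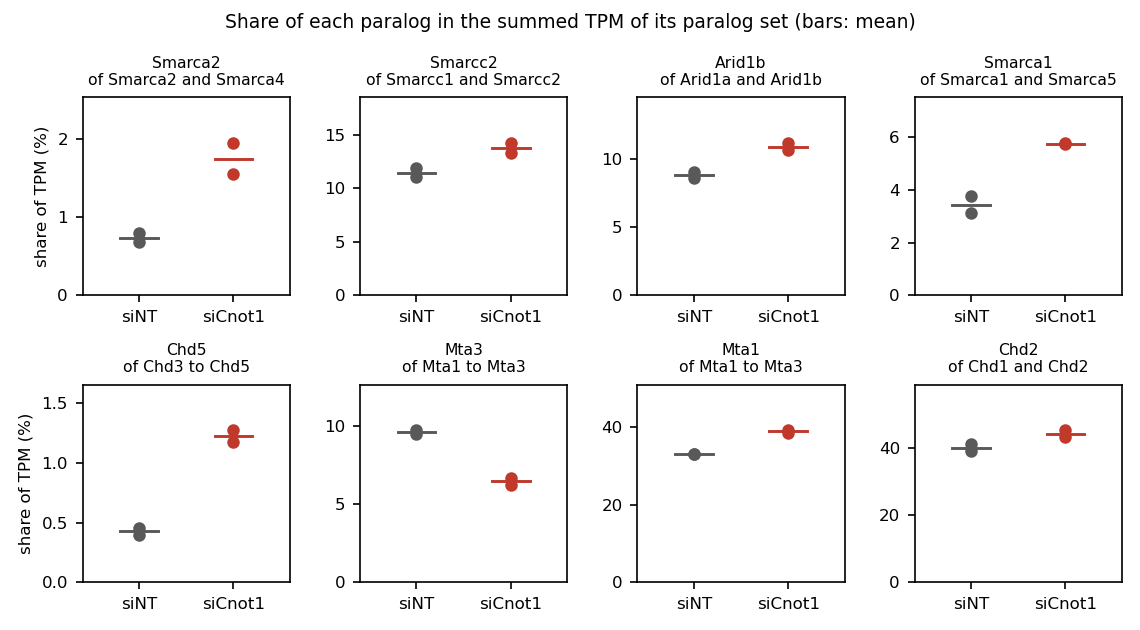
Share of 1 paralog in the summed TPM of its paralog set (vertical axis, percent, from 0) in each of the 2 siNT and 2 siCnot1 libraries, with a bar at the group mean. The shares of Smarca2, Smarcc2, Arid1b, Smarca1, Chd5, Mta1 and Chd2 were higher in both siCnot1 libraries, and that of Mta3 was lower.

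All 3 ISWI genes were called, 2 higher and 1 lower, beside 15.0% higher and 14.7% lower of all genes tested. Here too the 2 alternative ATPases moved apart, and Smarca5, which fell, lies above 256 normalized CPM, where 61.0% of all genes were lower. Smarca1, which encodes SNF2L, the ISWI enzyme most abundant in neurons (chrX:46898247-46981490), had 19 and 16.02 normalized CPM in siNT and 25.5 and 25.9 in siCnot1. Both siCnot1 values exceeded both controls, and the log2 fold change was 0.55 (SE 0.111, edgeR adjusted p = 0.000513). Smarca5, which encodes SNF2H, the main ISWI enzyme of dividing cells (chr8:81426572-81466088), was at 439.8 and 452 in siNT and at 376 and 385 in siCnot1. The groups did not overlap and the log2 fold change was -0.23 (SE 0.0539, edgeR adjusted p = 0.0022), or -0.12 with library totals (edgeR adjusted p = 0.0728). In TPM, Smarca1 was 3.77% and 3.11% of the pair in siNT and 5.78% and 5.75% in siCnot1. Bptf, the large subunit of the NURF complex that reads trimethylated histone H3 lysine 4 (chr11:106923907-107022982), had 231 and 248 normalized CPM in siNT and 269.7 and 279.7 in siCnot1. It was higher in both siCnot1 libraries, with a log2 fold change of 0.20 (SE 0.0577, edgeR adjusted p = 0.0112). Without siNT replicate 2, Smarca1 was not called (edgeR adjusted p = 0.0593). Smarca5 was not called without siNT replicate 1, siNT replicate 2 or siCnot1 replicate 1 (0.0528 to 0.0694), and Bptf was called in none of the 4 fits (0.0559 to 0.189). A processed copy, Smarca5-ps, had 267 to 389 counts per library, and reads of the 2 copies could be split by the counting.

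In the CHD family 4 of the 9 ATPase genes rose, 1 fell and 4 were not called. The shares over all genes tested were 15.0% higher and 14.7% lower. Chd5, the NuRD-type ATPase of neurons and testis (chr4:152423103-152474651), showed the largest change of all 48 genes, from 4.5 and 3.797 normalized CPM in siNT to 13.2 and 11.7 in siCnot1. Each siCnot1 value was more than 2-fold above each control, at a log2 fold change of 1.58 (SE 0.167, edgeR adjusted p = 2.02e-07). Chd4, the NuRD ATPase of ESCs (chr6:125072943-125107554), was at 862 and 835 in siNT and 906 and 868 in siCnot1. Its siCnot1 values were both a little higher, but the gene was not called (log2 fold change 0.063, SE 0.0529, edgeR adjusted p = 0.407), whereas scaling by library totals gave 0.17 and an edgeR adjusted p of 0.0118. Chd3, the third NuRD ATPase (chr11:69234099-69260325), had 29.9 and 27.4 in siNT and 23.5 and 24.9 in siCnot1. Both siCnot1 values were lower, without reaching the threshold (log2 fold change -0.25, SE 0.101, edgeR adjusted p = 0.07103). Even so, Chd5 was no more than 1.27% of the summed TPM of Chd3, Chd4 and Chd5 in any library, and Chd4 was 95.8% to 96.1% in each.

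The other CHD enzymes that rose did so by similar, small amounts. Chd8, a repressor of Wnt target genes and an autism gene (chr14:52435608-52495499), had 174 and 177 normalized CPM in siNT and 219 and 215 in siCnot1. The gap was many times the spread within groups, and the log2 fold change was 0.31 (SE 0.0566, edgeR adjusted p = 0.0002296). Chd6, of the subfamily of Chd8 (chr2:160788898-160951006), was at 77.95 and 82.8 in siNT and at 96.5 and 99.99 in siCnot1. It rose without overlap by 0.29 (SE 0.0666, edgeR adjusted p = 0.00185). Chd2, which acts on transcribed chromatin (chr7:73076400-73191494), had 129 and 125 in siNT and 145 and 153 in siCnot1. Its log2 fold change was 0.23 (SE 0.0612, edgeR adjusted p = 0.00608), again without overlap, while 6.99% of its exon bases are shared with the same-strand noncoding gene Chaserr. Chd9, of the same subfamily as Chd6 and Chd8 (chr8:91554930-91781144), was at 194 and 209 in siNT and 176 and 183 in siCnot1. It fell by a log2 fold change of -0.16 (SE 0.0591, edgeR adjusted p = 0.0389) without overlap, and with library totals the value was -0.057 (edgeR adjusted p = 0.495).

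Chd1 and Chd7 were not called. Chd1, which keeps ESC chromatin open (chr17:15925229-15992874), had 172 and 182 normalized CPM in siNT and 176 and 173 in siCnot1, so the groups overlapped. Its log2 fold change was -0.018 and the interval of 2 SE either side ran from -0.14 to 0.099. For Chd7, the CHARGE syndrome gene that binds enhancers (chr4:8690345-8868449), the values were 101 and 106 in the siNT libraries and 104 and 108 in siCnot1, again overlapping, with an interval from -0.093 to 0.16 around 0.034. With 1 library left out, Chd2 was not called without siNT replicate 1, siNT replicate 2 or siCnot1 replicate 2 (edgeR adjusted p of 0.0862 to 0.147). Chd6 was not called without siNT replicate 1 or siCnot1 replicate 2 (0.0798 to 0.0904), and Chd9 was called in none of the 4 fits (0.0821 to 0.277).

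Of the 5 NuRD partner genes in the set, 2 fell and 0 rose, beside 14.7% lower and 15.0% higher of all genes. Mta3, one of 3 alternative MTA scaffolds of NuRD (chr17:84013483-84131144), had 88.6 and 89.4 normalized CPM in siNT and 52.3 and 58.1 in siCnot1. This was the largest drop among the 48 genes, with a log2 fold change of -0.69 (SE 0.0734, edgeR adjusted p = 2.23e-07), and the groups were far apart. Mta2, the most abundant of the 3 per length (chr19:8919284-8929664), was at 206 and 214 in siNT and at 181 and 187 in siCnot1. It fell by 0.19 on the log2 scale (SE 0.0574, edgeR adjusted p = 0.0138) without overlap, and with library totals the value was -0.084 (edgeR adjusted p = 0.272). Mta1 was not called (99.7 and 103 against 109 and 110.5), and its share of the summed TPM of Mta1, Mta2 and Mta3 was 33.1% and 33.0% in the siNT libraries and 39.2% and 38.6% in siCnot1. The share of Mta3 was 9.71% and 9.46% in the siNT libraries and 6.22% and 6.70% in siCnot1. The methyl-CpG-binding subunits Mbd2 and Mbd3, which define alternative forms of NuRD, were not called, at log2 fold changes of 0.0036 and 0.17. Mbd3 was called higher with upper-quartile scaling (0.19, edgeR adjusted p = 0.0394), library totals (0.27, 0.00293) and a filter of 1 CPM (0.18, 0.0344). Mta1 was called higher with library totals (0.22, edgeR adjusted p = 0.00823). Without 1 library, whichever it was, Mta2 was not called (edgeR adjusted p of 0.0764 to 0.163). The opposite-strand gene Gm10353 shares 12.6% of the exon bases of Mta2 and had 3 to 12 counts per library.

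**Figure D4:**
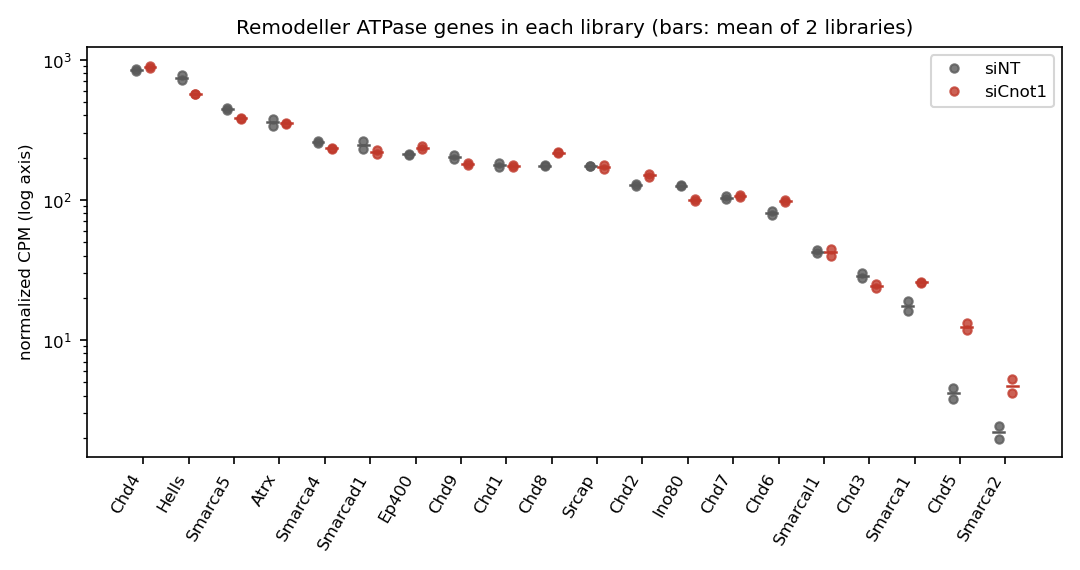
Normalized CPM (vertical axis, log scale) of the 20 remodeller ATPase genes in each library, siNT in grey and siCnot1 in red, with a bar at the mean of 2 libraries. Genes are ordered by level, from Chd4 at 835 to 906 down to Smarca2 at 1.98 to 5.26, and the gap between the groups is widest for Chd5 and Smarca2 at the low end.

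Among the INO80 and SWR1 genes 2 of 7 rose, 3 fell and 2 were not called. All genes tested had 15.0% higher and 14.7% lower. Ino80, the ATPase of the complex of that name (chr2:119203523-119308168), had 125 and 127 normalized CPM in siNT and 98.8 and 101 in siCnot1. The libraries of each group lay close together and the groups far apart, with a log2 fold change of -0.34 (SE 0.0617, edgeR adjusted p = 0.000211). Ep400, the ATPase of the TIP60-p400 complex, which acetylates histones and exchanges H2A.Z (chr5:110812239-110918780), was at 210 and 212 in siNT and 240.4 and 229 in siCnot1. Both siCnot1 values were higher, and with a log2 fold change of 0.15 (SE 0.0567, edgeR adjusted p = 0.0444) this was the call nearest the threshold. Srcap, the ATPase that loads H2A.Z in the SRCAP complex (chr7:127111155-127160391), had 173 and 176 in siNT and 167 and 178 in siCnot1. Its groups overlapped, at a log2 fold change of -0.019 with an interval of 2 SE from -0.14 to 0.10.

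The INO80 subunit genes that are not ATPases split as well. Ino80b (chr6:83098746-83102100) had 25.5 and 25.1 normalized CPM in siNT and 16.99 and 19.2 in siCnot1. It was lower in both siCnot1 libraries, with a log2 fold change of -0.48 (SE 0.108, edgeR adjusted p = 0.00139). Ino80e (chr7:126450756-126461544) was at 64.5 and 62.1 in siNT and at 53.9 and 47.5 in siCnot1. It fell without overlap, at a log2 fold change of -0.32 (SE 0.0818, edgeR adjusted p = 0.00445) and at -0.21 with library totals (edgeR adjusted p = 0.0542). Its exons share 36.6% of their bases with the opposite-strand gene Doc2a, which had 16 to 53 counts per library, and 5.6% with Hirip3, which had 4627 to 5551, so its level is uncertain. Ino80c (chr18:24237818-24254876) moved the other way, from 35.2 and 31.2 in siNT to 38.4 and 40.97 in siCnot1. It rose without overlap by 0.26 on the log2 scale (SE 0.0946, edgeR adjusted p = 0.0425), but DESeq2 did not call it (DESeq2 adjusted p = 0.104). Ino80d overlapped between the groups (94.7 and 114 against 101 and 101). With 1 library left out, Ep400 (edgeR adjusted p of 0.116 to 0.339) and Ino80c (0.0921 to 0.300) were called in none of the 4 fits. Ino80b was not called without siNT replicate 1, siNT replicate 2 or siCnot1 replicate 1 (0.0610 to 0.0792), nor Ino80e without siNT replicate 1, siNT replicate 2 or siCnot1 replicate 2 (0.0800 to 0.142).

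Of the 4 other SNF2-type enzymes only Hells was called, at a level above 256 normalized CPM, where 61.0% of all genes were lower. Hells, also known as LSH, which is needed for DNA methylation at repeats (chr19:38913282-38958914), had 711 and 778 normalized CPM in siNT and 568 and 569 in siCnot1. Both siCnot1 values were far below both controls, at a log2 fold change of -0.39 (SE 0.0557, edgeR adjusted p = 1.18e-05). Smarcad1, which acts on chromatin after replication (chr6:65019575-65093045), was at 231 and 262 in siNT and 214 and 227 in siCnot1. The groups did not overlap, but the gene just missed the threshold (log2 fold change -0.16, SE 0.0631, edgeR adjusted p = 0.0545). Atrx, which with DAXX places H3.3 at telomeres and repeats (chrX:104841221-104972978), had 335 and 379 in siNT and 348 and 353 in siCnot1. The siNT replicates differed from each other by more than the groups did, and the interval of 2 SE ran from -0.15 to 0.092. Smarcal1, which anneals DNA at stalled replication forks (chr1:72575593-72675949), overlapped likewise, with 43.6 and 41.6 in siNT and 39.95 and 44.7 in siCnot1 and an interval from -0.19 to 0.17.

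Groups did not overlap for 34 of the 47 genes, 15 of them higher and 19 lower in siCnot1. Over all genes tested 32.7% did not overlap in the higher direction and 31.2% in the lower, so the count of higher genes is near that of the background. Per length, the ATPase genes with the highest level in siNT were Chd4 at 235 and 237 TPM and Smarca5 at 229 and 241 TPM, which overlapped, followed by Hells at 148 and 165 TPM. Atrx, Smarca4 and Smarcad1, at means of 85.3, 69.5 and 69.2 TPM, came next, and the last pair overlapped. The lowest were Chd5 at a mean of 1.05 TPM and Smarca2 at 0.515 TPM, the same ATPase genes that rose most.

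**Figure D5:**
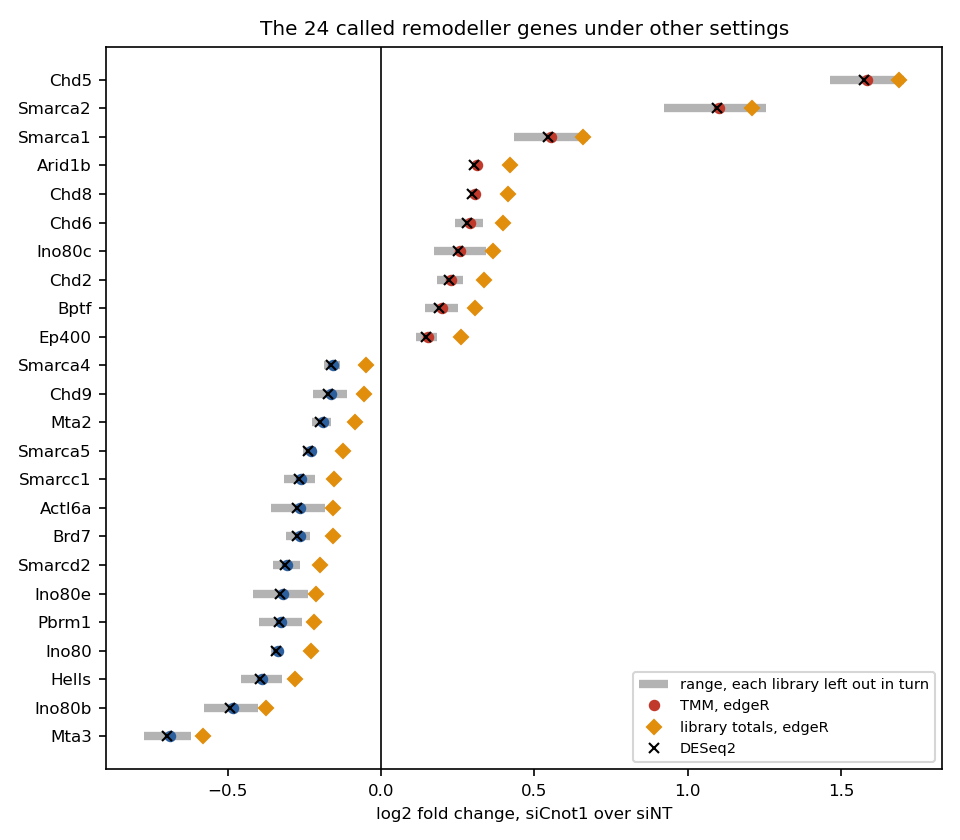
Log2 fold change of siCnot1 over siNT (horizontal axis) of the 24 called genes under TMM with edgeR (circles, red higher and blue lower), library totals with edgeR (diamonds) and DESeq2 (crosses), with grey bars for the range when each library was left out in turn. Library totals shift each gene to the right, and no gene crosses 0.

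Further genes that the name pattern did not take were listed, 67 in all, and every one was tested. They are partners in the same complexes and 12 further SNF2-type ATPases, together called partner genes below. Of the 67, 7 rose, 15 fell and 45 were not called, which is 10.4% higher and 22.4% lower, beside 15.0% and 14.7% of all genes tested. The 12 further ATPases gave 3 of the rises and 2 of the falls. The median log2 fold change was -0.062, beside 0.0084 over all genes. The lists that follow hold 3 to 24 genes each and are read against the same shares. Among 11 SWI/SNF partners 2 rose and 2 fell. Actb, the actin subunit, had 1543 and 1629 normalized CPM in siNT and 1276 and 1349 in siCnot1, and fell by a log2 fold change of -0.27 (SE 0.0535, edgeR adjusted p = 0.000423). The accessory subunit Bcl7b fell from 22.3 and 19.1 to 12.8 and 15.3 (edgeR adjusted p = 0.00124), and its paralog Bcl7a rose from 28.2 and 27.6 to 33.1 and 33.9 (edgeR adjusted p = 0.03902). The sign thus differed between Bcl7a and Bcl7b, as it did for the SWI/SNF and ISWI ATPase pairs. It did not differ for Mta2 and Mta3 or for Morf4l1 and Morf4l2, which all fell. Among 11 ISWI partners 1 rose and 3 fell. Baz1a, the ACF1 partner of SNF2H, fell from 103 and 115 in siNT to 76.5 and 82.4 in siCnot1 (edgeR adjusted p = 2.55e-05). Rbbp4, a histone-binding subunit of NURF and NuRD alike, fell from 612 and 620 to 521 and 541 (edgeR adjusted p = 0.00349), and Hmgxb4, a protein found with NURF, rose from 68.95 and 70.8 to 80.8 and 87.3 (edgeR adjusted p = 0.00579).

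Of 8 NuRD partners 2 fell and 0 rose, namely Rbbp4 and Gatad2b, a p66 subunit, which went from 114 and 114 normalized CPM to 101 and 96.2 (edgeR adjusted p = 0.0122). The histone deacetylase genes Hdac1 and Hdac2 were not called. Of 24 partners of INO80, SRCAP and TIP60-p400, 6 fell and 1 rose. Ruvbl1, an AAA+ ATPase shared by these 3 complexes, fell from 209 and 195 in siNT to 148 and 149 in siCnot1 (log2 fold change -0.44, SE 0.0592, edgeR adjusted p = 4.50e-06). Both MRG-domain subunits of TIP60-p400 fell too, Morf4l2 from 536 and 531 to 402 and 431 (edgeR adjusted p = 2.82e-05) and Morf4l1 from 510.2 and 494 to 401 and 431 (edgeR adjusted p = 0.000649). Of 12 further SNF2-type ATPases, most of them DNA repair enzymes, 3 rose and 2 fell. Rad54l2 rose from 113 and 115 to 151 and 158 (edgeR adjusted p = 8.11e-06), Zranb3 from 51.2 and 54.8 to 68.4 and 68.3 (edgeR adjusted p = 0.0007598) and Rad54b from 29.99 and 30.7 to 40.5 and 39.4 (edgeR adjusted p = 0.00199). Of 3 partners of ATRX and HELLS only Cdca7, which brings HELLS to chromatin, was called. It was at 276 and 285 in siNT and 201 and 198 in siCnot1 and fell, as Hells did, with a log2 fold change of -0.49 (SE 0.05603, edgeR adjusted p = 5.60e-07).

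Baz1a, Ruvbl1, Morf4l2, Rad54l2 and Cdca7 were called in each of 12 other fits. The others kept their sign in all 12 but were not called in every fit. Fits without 1 library called fewer of all genes, as given above, so a lost call does not single out that library. Actb was not called without siNT replicate 2 (edgeR adjusted p = 0.0673), Zranb3 without siNT replicate 1 (0.0650), and Morf4l1, Rad54b and Bcl7b without siNT replicate 1 or siCnot1 replicate 1 (0.0561 to 0.135). Rbbp4 was lost without siNT replicate 1, siNT replicate 2 or siCnot1 replicate 1, Hmgxb4 without siNT replicate 1, siNT replicate 2 or siCnot1 replicate 2, and Gatad2b and Bcl7a without any 1 library, at edgeR adjusted p values of 0.0672 to 0.203. Scaling by library totals also ended the calls of Rbbp4 (edgeR adjusted p = 0.1085) and Gatad2b (0.213), and DESeq2 that of Bcl7a (DESeq2 adjusted p = 0.102). Bcl7a was also lost with the replicate number as a block (edgeR adjusted p = 0.0615). With no low-count filter Bcl7a (0.0976), Bcl7b (0.0567), Hmgxb4 (0.0645) and Gatad2b (0.0582) were not called (edgeR adjusted p).

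Marker genes were read in the same libraries. All 10 ESC markers were expressed, their summed level was 5953 to 6007 normalized CPM in siNT and 5104 to 5404 in siCnot1, and 7 of the 10 were lower and 0 higher. Highly expressed genes were lower more often in general. Of all genes over 256 CPM 61.0% were lower, and 5 of the 6 ESC markers in that class were, and between 64 and 256 CPM the share was 32.2%, with 2 of 4 ESC markers lower. Of 12 markers of 2-cell-like cells 9 were higher and 0 lower, beside 15.0% and 14.7% of all genes tested. The sum of the 12 went from 89.4 and 89.6 to 234 and 241. The 9 were Zscan4a to Zscan4f, Usp17la, Usp17lb and Tcstv1, while Tcstv3, Zfp352 and Tdpoz4 were not called. Because the Zscan4 genes are paralogs of a single cluster, the 9 are not separate lines of evidence. Tcstv1 had only 1 and 2 counts in siNT and 11 and 11 in siCnot1. Of 10 neuron markers 3 were higher (Tubb3, Neurod1 and Elavl3) and 2 lower (Stmn2 and Pax6), and their sum was 401 to 406 in siNT and 403 to 414 in siCnot1. Stmn2 made up most of that sum, at 314 and 311.5 in siNT and 258 and 274 in siCnot1. The other 9 neuron markers summed to 87.0 and 94.6 in siNT and to 144 and 140.5 in siCnot1, a split made after the values were seen. Tubb3 alone held most of that remaining sum, at 61.6 and 65.2 in siNT and 108.3 and 107.9 in siCnot1. Of 8 endoderm and mesoderm markers 5 could be tested and 0 were called (1 had an unadjusted p under 0.05), T was at 0 in all libraries, and the sum was 8.93 to 9.001 in siNT and 9.97 to 10.4 in siCnot1. Of 7 fibroblast markers 2 of 4 tested were higher (Col1a1 and Pdgfrb), Col3a1 and Dcn were at 0, and the sum was 17.0 to 20.3 in siNT and 25.2 to 29.1 in siCnot1. The sums of the ESC, 2-cell-like, endoderm and mesoderm and fibroblast markers did not overlap between the groups. Of these only the ESC sum was lower in siCnot1. The sum of all 10 neuron markers overlapped between the groups. Without Stmn2, left out after the values were seen, the neuron sum was higher in siCnot1 without overlap. Over all genes tested 32.7% were higher and 31.2% lower without overlap. The part of these cell types in the changes of Chd5, Smarca2, Smarca1 and the other called genes was not tested. In bulk RNA, a change in the number of cells of a type and a change in RNA per cell cannot be told apart.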

How the data were processed

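RNA-seq was measured in 4 libraries, 2 siNT and 2 siCnot1, grouped by their sample labels. The authors deposited raw counts per gene with exon positions and lengths, neither normalized nor pooled. Per the labels, processing used fastp 0.19.4, HISAT2 2.2.1 and DESeq2 1.40.2 with mm10. The deposited positions are those of GRCm39, and the counting program and whether counting used strand are not given in the sources used here. Promoters and 3′ UTRs came from GRCm38 and were joined by gene name only, never by position.

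Genes passing filterByExpr (minimum count 10) were fitted in edgeR 4.0.16 under R 4.3.3. The siRNA was the sole term, since no pairing by replicate number is stated. Each SE was obtained as the size of the log2 fold change over the root of F. Totals were 32135824 to 32557440 counts, so 3 counts were 0.0921 to 0.0934 CPM, a floor that covers counting error only. TPM was computed from the deposited counts and lengths without TMM scaling, and TPM values and shares were not tested: an exact permutation test of 2 against 2 cannot go below p = 0.333. On simulated data for this comparison the fit recovered 131 of 200 genes changed 2-fold with 2 false calls among 17674, and 29 of 200 changed 1.2-fold with 2 false calls among 17649.

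The member genes, families, partner and marker lists were chosen with earlier results of these data known. Named with values were all ATPase genes, all other members called, at most 3 called genes with the smallest p per partner list, and Cnot1; called marker genes and uncalled paralogs or subunits of named genes were added later, with their values known. Other settings tried were library totals, upper-quartile scaling or DESeq2's size factors in place of TMM, no count filter, 1 CPM in 2 libraries, DESeq2 1.42.0, limma-voom (limma 3.58.1), the replicate number as a block, and each library left out.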

Additional observations from a re-analysis of the deposited data

How the results depend on the processing

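All 24 called members kept their sign in each of the 12 other fits. Under the 8 that used all 4 libraries, 6 of the 10 higher and 8 of the 14 lower calls held throughout. With library totals 9 members were lower (7 higher and 1 lower in CHD and NuRD, 0 lower in ISWI), beside 22% higher and 8.61% lower of all genes. The member median was 0.088. Family medians were 0.077 (SWI/SNF), 0.31 (ISWI), 0.16 (CHD and NuRD), 0.058 (INO80 and SWR1) and 0.012 (other SNF2). That scaling gave 11 higher and 9 lower partner genes, and it turned the uncalled Arid1a (0.083), Arid2 (0.077), Atrx (0.079), Chd1 (0.089), Ino80d (0.058), Smarcal1 (0.097) and Srcap (0.088) positive. With no count filter, which tests 30308 genes, 6 members were higher and 9 lower, beside 4.3% and 4.78% of all genes. In that fit 1 was higher in ISWI, 0 were higher in INO80 and SWR1 and 1 was lower in CHD and NuRD. Partners were 3 and 8, and Mbd2 was at -0.0030. Actl6a, Bptf, Chd2, Chd9, Ep400, Ino80c, Ino80e, Mta2 and Smarca4 were not called in that fit (edgeR adjusted p of 0.0604 to 0.163). Upper-quartile scaling gave medians of 0.068 (CHD and NuRD) and -0.029 (INO80 and SWR1), with Chd1 at 0.0012, Smarcal1 at 0.0097 and Srcap at 0.00084. It ended the calls of Chd9 and Smarca4 (edgeR adjusted p of 0.0684 and 0.0681), and DESeq2's size factors that of Ep400 (0.0535). A filter of 1 CPM gave a CHD and NuRD median of 0.059 and Smarcal1 at 0.00057. DESeq2's size factors and DESeq2 each gave 1 higher in INO80 and SWR1, with Mbd2 at -0.0016 and -0.0045. The size factors, the 1 CPM filter and limma-voom gave 2 lower among other SNF2 genes, the second being Smarcad1.

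Whether the replicate numbers pair the libraries is not stated in the titles or the study's methods. Deviations from the group means correlated at -0.0057 over the 18144 genes tested. This shows no strong effect shared by replicate number, but cannot tell whether the libraries were paired. With the replicate number as a block, 8 members were higher and 12 lower, 0 of the higher ones in INO80 and SWR1. Of all genes 13.9% were higher and 13.4% lower with the block. Chd9, Smarca4, Ep400 and Ino80c were not called in that fit (edgeR adjusted p of 0.0631, 0.0702, 0.0807 and 0.0653).

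With 1 library left out, the lone library of a group is assumed to vary like the other group. Over the 4 fits 3 to 6 members were higher and 4 to 8 lower, with medians of -0.072 to -0.0041 and 1 to 2 higher at the study's thresholds. The ranges were 0 to 1 higher, 1 to 3 lower and medians of -0.16 to -0.016 in SWI/SNF. In ISWI they were 0 to 1 higher, 0 to 1 lower and 0.14 to 0.25. CHD and NuRD had 2 to 4 higher and 1 lower in each fit, INO80 and SWR1 0 higher, 1 to 2 lower and -0.18 to -0.011, and other SNF2 medians of -0.19 to -0.057. Partners ranged over 1 to 4 higher and 6 to 9 lower. Of the uncalled genes, Arid1a ranged from -0.078 to 0.020, Atrx from -0.12 to 0.061, Chd1 from -0.065 to 0.023, Chd7 from -0.0075 to 0.069, Dpf1 from -0.10 to 0.12, Dpf3 from -0.38 to 1.196, Ino80d from -0.18 to 0.090, Mbd2 from -0.017 to 0.017, Smarcal1 from -0.099 to 0.065, Smarcd3 from -0.088 to 0.12 and Srcap from -0.072 to 0.024.

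Beyond the number of genes or libraries each fit used, the cause of these changes was not tested. At this depth, changes of 1.2-fold were mostly missed in simulated data (29 of 200 recovered, 26 of them among the 64 with a mean over 1000 counts). That simulation changed only 200 genes, while 2719 were called higher and 2668 lower here. Its adjusted threshold was therefore stricter, and it cannot set the limit for these data. An uncalled member may still differ within its interval of 2 SE. For Chd1 (-0.14 to 0.099) and Srcap (-0.14 to 0.10) that interval leaves out a 1.2-fold change, and for Chd3 (-0.45 to -0.043) it does not. Dpf3, at about 1 CPM or less, and Actl6b are limited by depth.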
